A study of Homo sapiens with 2 samples.

Results

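The 9 genes described here are those of the NF-kappaB transcription factor subunits, NFKB1, NFKB2, RELA, RELB and REL, and 4 genes that NF-kappaB is known to switch on, NFKBIA, TNFAIP3, BIRC3 and ICAM1. They were chosen by name, with earlier results of these data known. Every accessible region inside the gene or within 50 kb of either annotated end was taken. After overlapping regions of both libraries had been merged, these windows held 117 of the 130506 regions on chromosomes 1 to 22 and X. They came from 119 regions of the lactate list and 85 regions of the untreated list.

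Chromatin accessibility was assayed in CAL27 cells by ATAC-seq, a method based on Tn5, a transposase that inserts adapters where DNA is exposed. CAL27 is an established line from a squamous carcinoma of the tongue. One library came from cells given 10 mM lactate for 24 h and held 15401276 tags, and 1 came from cells with no treatment and held 18248413 tags. Cells of both libraries were taken from a thawed vial, and beyond the lactate the labels give no difference between them. Since each condition has 1 library, differences have no replicate check, no test was run, and all values compare these libraries and not the conditions. Every interval given is a 95% interval for the counting of tags or regions and for no other error. Region heights are summit tags, the extended tags covering the highest point of a region. Scaled tags are summit tags per 1000000 total tags of the library. In a bulk library, an opening in more cells and a wider opening in each cell cannot be told apart.

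Of 10 squamous epithelial marker genes, 8 had a region within 1 kb of a gene end in both libraries, and TP63 and KRT14 had none there. Of all protein-coding genes, 62.3% had one in both libraries and 31.3% in neither. All 6 endothelial markers had none in either library, nor did the leukocyte genes PTPRC, CD3D, MS4A1 and CD79A. The leukocyte genes CD3E, CD14, CD68 and SPI1 had one in both libraries and LCP2 one in the untreated library alone. Of 8 fibroblast markers, 4 had one in both libraries and COL3A1, DCN, LUM and FAP had none.

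NF-kappaB proteins are dimers that are held in the cytoplasm by inhibitors of the IkappaB family until a signal, such as a tumour necrosis factor or interleukin-1 receptor, activates the IkappaB kinase. The freed dimers bind kappaB sites in DNA, and some of the genes they induce shut the pathway off again. In squamous epithelium and its carcinomas the pathway is known for its part in inflammation and in the survival of cells. NFKBIA encodes the inhibitor IkappaB-alpha, TNFAIP3 a ubiquitin-editing enzyme that ends the signal, BIRC3 an inhibitor of apoptosis and ubiquitin ligase, and ICAM1 the adhesion molecule that leukocyte integrins bind.

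The sequences just upstream of the gene starts are shown because several of these genes are known to be driven by NF-kappaB itself, and because the regions compared below lie over them. RefSeq promoter windows on GRCh38, from 250 bases before to 50 bases after a gene start, matched 8 of the 9 genes with 12 windows. RELB was not matched. Capitals mark GGAAANNCC on either strand, a shape chosen after these promoters had been read, and the 250 bases before the start are given 5′ to 3′ on the gene's strand. They lie at chr19:10270870-10271119 on the plus strand for ICAM1, chr14:35404750-35404999 on the minus strand for NFKBIA and chr11:102317234-102317483 on the plus strand for BIRC3. They lie at chr2:60881324-60881573 for REL and chr4:102501109-102501358 for NFKB1, both on the plus strand. For TNFAIP3 only the stretch with its paired matches is given, at chr6:137867189-137867215 on the plus strand, and for NFKB2 the match at its most downstream start, at chr10:102395682-102395696 on the plus strand.
ICAM1: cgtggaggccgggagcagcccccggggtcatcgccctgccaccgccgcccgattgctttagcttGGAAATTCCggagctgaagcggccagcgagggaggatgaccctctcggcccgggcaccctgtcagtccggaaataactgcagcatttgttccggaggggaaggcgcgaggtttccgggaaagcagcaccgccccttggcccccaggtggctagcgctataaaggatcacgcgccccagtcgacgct
NFKBIA: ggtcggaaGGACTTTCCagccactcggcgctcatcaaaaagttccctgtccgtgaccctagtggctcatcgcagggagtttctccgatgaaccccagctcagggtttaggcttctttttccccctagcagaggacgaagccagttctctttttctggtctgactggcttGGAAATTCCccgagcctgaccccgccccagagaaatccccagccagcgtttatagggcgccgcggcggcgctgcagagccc
BIRC3: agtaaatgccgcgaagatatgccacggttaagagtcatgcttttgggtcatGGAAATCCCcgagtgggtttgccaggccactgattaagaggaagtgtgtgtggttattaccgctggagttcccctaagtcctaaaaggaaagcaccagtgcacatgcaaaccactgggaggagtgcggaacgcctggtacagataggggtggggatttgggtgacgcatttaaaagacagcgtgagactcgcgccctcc
REL: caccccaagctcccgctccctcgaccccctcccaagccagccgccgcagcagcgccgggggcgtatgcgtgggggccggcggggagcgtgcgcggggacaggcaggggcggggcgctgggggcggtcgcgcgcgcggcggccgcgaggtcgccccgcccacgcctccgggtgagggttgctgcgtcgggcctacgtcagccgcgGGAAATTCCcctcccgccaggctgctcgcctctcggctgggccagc
NFKB1: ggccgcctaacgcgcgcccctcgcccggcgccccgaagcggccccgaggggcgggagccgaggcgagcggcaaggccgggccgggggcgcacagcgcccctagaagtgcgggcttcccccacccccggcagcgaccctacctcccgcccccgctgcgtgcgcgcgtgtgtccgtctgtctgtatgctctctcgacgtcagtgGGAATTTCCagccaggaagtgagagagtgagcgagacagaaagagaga
TNFAIP3: tttGGAAAGTCCcgtGGAAATCCCcgg
NFKB2: tcgGGACTTTCCtaa

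GGAAANNCC was found in 8 of the 12 windows (66.7%), covering 7 genes, and in 6.47% of the 22012 windows of all protein-coding genes. Since that shape was chosen after these promoters had been read, the difference between these shares is no test. The longer kappaB consensus, whose letters overlap those of GGAAANNCC, was found in 7 of the 12 windows (58.3%), covering 6 genes, and in 6.53% of all windows. RELA had neither in its windows, and ICAM1 had GGAAANNCC but not the longer consensus. The AP-1 letters TGANTCA were in none of the 12 windows and in 6.16% of all, and the GC box GGGCGG was in 10 of the 12 (83.3%) and in 56.3% of all. TATAAA, searched on the gene's strand alone, was in the ICAM1 window only among the 12 and in 6.48% of all, while the other motifs were searched on both strands. A match describes the letters and not a bound site.

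Of the 10 GGAAANNCC matches, 9 lay inside a region of the lactate list. In both lists the match farthest upstream at NFKBIA lay outside the listed region. The NFKB1 match lay inside a lactate region but in no untreated region. The remaining 8 lay inside regions of both lists. From the match to the lactate summit the distance was 100 bp at ICAM1, 42 bp at REL, 138 bp at BIRC3, 97 bp at the inner NFKBIA match and 58 and 46 bp at the TNFAIP3 pair. At NFKB1 it was 608 bp, so the highest point there was away from the kappaB letters.

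At the gene starts, 8 of the 9 genes had a region in both libraries, and every one of the 8 was taller in scaled tags in the lactate library, although the intervals of RELB and NFKBIA include a ratio of 1. The excess was largest at ICAM1, small at RELB and NFKBIA, and at NFKB1 a region was listed in the lactate library alone. Over all protein-coding genes, at the tallest region within 1 kb of either gene end, 3.24% of 12354 had a ratio below 1. Of 19974 genes, 5.75% had a region there in the lactate library alone. Taller regions in the lactate library were thus the rule and not particular to these genes. Because regions all over the genome were taller in the lactate library, with a median ratio of 1.65 at the 86803 regions shared by both lists, each ratio is also given as a relative ratio. All shared regions were put into 20 bins by the sum of their tags in the libraries, and the ratio was divided by the median ratio of its bin. Ratios are lactate over untreated. On the relative scale ICAM1, REL and NFKB2 stood above 1 and the other 5 stood below 1. At the gene ends of all protein-coding genes with a ratio, 54.5% stood above 1. With the tags of all summits of a region summed, ICAM1 stayed above 1 (1.76) and NFKBIA (0.617) and BIRC3 (0.633) below, but REL (0.826) and NFKB2 (0.818) came below 1, RELB (1.37) and TNFAIP3 (1.08) above it, and RELA to 1.0.

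**Figure D1:**
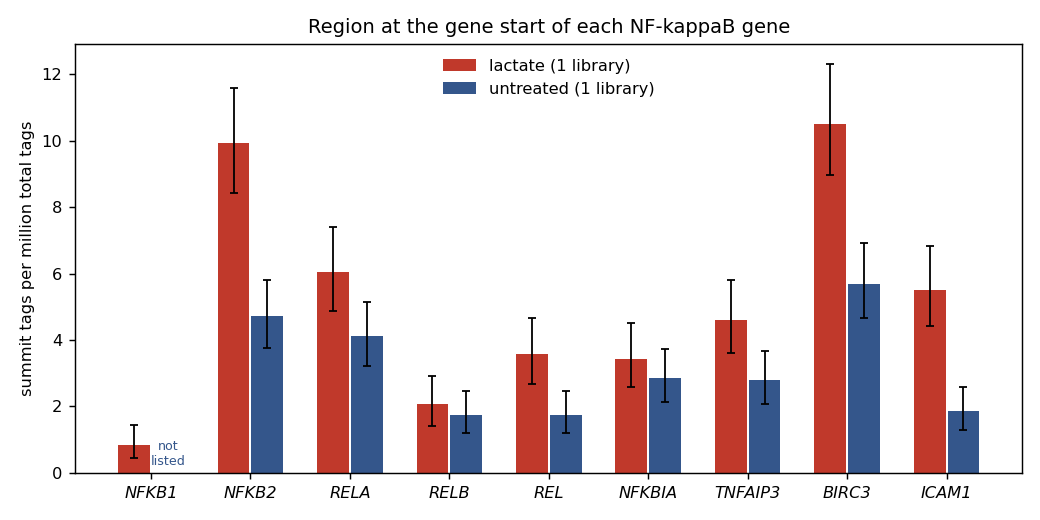
Scaled tags, summit tags per 1000000 total tags (vertical axis), at the region over the start of each gene, with lactate bars left of untreated bars, 1 library each. Error lines are exact 95% Poisson intervals of the tag count, and ICAM1 had 5.52 scaled tags in the lactate library against 1.86 in the untreated library.

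Among the subunits that carry a transactivation domain, RELA (chr11:65653601-65663857) had 93 summit tags in the lactate library and 75 in the untreated library, which is 6.04 against 4.11 scaled tags. Its ratio was 1.47 (conditional Poisson interval 1.07 to 2.02) and its relative ratio 0.757 (0.553 to 1.04). RELA encodes the subunit of the classical heterodimer with the NFKB1 product, and 83.9% of regions of like height had a ratio at least as high. With the tags of all summits of a region summed, the RELA ratio was 1.77 and its relative ratio 1.0. There were 4 summits in the lactate and 3 in the untreated region. REL (chr2:60881574-60931612), the subunit best known from lymphocytes, had 55 tags in the lactate library and 32 in the untreated library, 3.57 against 1.75 scaled tags. The REL ratio was 2.04 (1.29 to 3.25) and the relative ratio 1.15 (0.728 to 1.83). RELB (chr19:45001464-45038192), the partner of the processed NFKB2 product, had 32 tags in each library at its lower-coordinate end, or 2.08 scaled tags in the lactate and 1.75 in the untreated library. Its ratio was 1.18 (0.703 to 2), with a relative ratio of 0.694 (0.412 to 1.17). The strand of RELB is not in the table used, so that this end is the start was not shown. With the tags of all summits of a region summed, the RELB ratio was 2.30, there being 2 summits in the lactate and 1 in the untreated region. Summits of the RELB region lay 516 bp apart in the libraries, against 1 to 31 bp at the other 7 genes with a region in both lists.

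The precursor genes differed in listing. NFKB1 (chr4:102501359-102617302), whose product is processed to the partner of RELA, had 13 tags in the lactate library, 0.844 scaled tags (Poisson interval 0.449 to 1.44), over 3 summits in 1136 bp, and no region there in the untreated list. It was the lowest of the 9 gene starts in the lactate library, and 26.2% of all regions of that list were lower. The summit lay 11 bp before the more downstream of the 2 listed NFKB1 starts, while the kappaB letters shown above lie at the other. No height is listed for untreated cells where no region was called, so no ratio can be given. NFKB2 (chr10:102394110-102402529), the precursor of the alternative pathway, had 153 tags in the lactate library and 86 in the untreated library, or 9.93 against 4.71 scaled tags. Its ratio was 2.11 (1.61 to 2.78) and its relative ratio 1.11 (0.844 to 1.46). A neighbouring region at a start farther inside NFKB2, which holds the NFKB2 sequence shown above, had 46 lactate and 36 untreated tags and a ratio of 1.51.

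Among the feedback genes, NFKBIA (chr14:35401513-35404749) had 53 tags in the lactate library and 52 in the untreated library at its start, 3.44 against 2.85 scaled tags. The ratio was 1.21 (0.808 to 1.81) and the relative ratio 0.663 (0.443 to 0.991), the lowest of the 8. Of regions in its bin, 10.2% had a ratio as low or lower. The authors' fold enrichment there was 4.48 in the lactate and 4.20 in the untreated library, which with the pileups gives a local background of 11.1 tags in the lactate and 11.6 tags in the untreated library. Scaled for depth, this background was 0.718 scaled tags in the lactate and 0.637 in the untreated library. TNFAIP3 (chr6:137866349-137883312) had 71 lactate and 51 untreated tags, 4.61 against 2.79 scaled tags, with a ratio of 1.65 (1.14 to 2.41) and a relative ratio of 0.888 (0.611 to 1.30). That region lies 905 bp inside the outermost annotated end of TNFAIP3, over the listed start whose kappaB pair is shown above. BIRC3 (chr11:102317484-102339403) was the tallest of the 9 starts in both libraries, with 162 lactate and 104 untreated tags, 10.5 against 5.70 scaled tags. Its ratio of 1.85 (1.43 to 2.38) and relative ratio of 0.969 (0.753 to 1.25) placed it in the middle of regions of its height. With the tags of all summits summed the BIRC3 ratio was 1.12, since the untreated region had 2 summits and the lactate region 1.

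ICAM1 (chr19:10271120-10286615) had 85 tags in the lactate library and 34 in the untreated library at its start, 5.52 against 1.86 scaled tags. The ratio was 2.96 (1.97 to 4.55) and the relative ratio 1.59 (1.06 to 2.45), the highest of the 8. In its bin 5.77% of 4367 regions had a ratio at least as high, and being the extreme of 8 gene starts it was named with its value known. The summits lay 7 bp apart, 82 bp before the start in the lactate library, and the region holds both the GGAAATTCC and the TATAAA of the sequence above. A smaller region 0.631 kb before the start had 27 tags in the lactate and 28 in the untreated library, a ratio of 1.14 (0.648 to 2.01), whose interval just overlaps that at the start. A further region 1.44 kb before the start, with 29 tags, was listed in the lactate library alone.

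Of the ordered gene starts, intervals of the relative ratio overlapped between each gene and the next. They did not overlap between ICAM1 (1.06 to 2.45) and either NFKBIA (0.443 to 0.991) or RELA (0.553 to 1.04). ICAM1, NFKBIA and RELA were picked after the values had been ordered. The gap to RELA is narrow and holds for the tallest summit alone. With the tags of all summits summed, the relative ratio of RELA was 1.0. At the tallest region within 1 kb of either gene end, the measure used for other pathway genes below, RELA and RELB are represented by taller regions near ends of SIPA1 and CLASRP, and the median relative ratio of the 8 genes was 1.06 in place of 0.928. The nearest of 52 other pathway genes were CD40 (1.056), MALT1 (1.05) and TNFRSF1B (1.07) to the first median, and BCL2A1 (0.925), TAX1BP1 (0.924) and GADD45B (0.935) to the second, a likeness over 2 libraries only. Their values are all at the gene end, whereas the second median is at the gene start. Intervals of all of them included 1, and TNFRSF1B had only 15 lactate and 12 untreated tags.

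**Figure D2:**
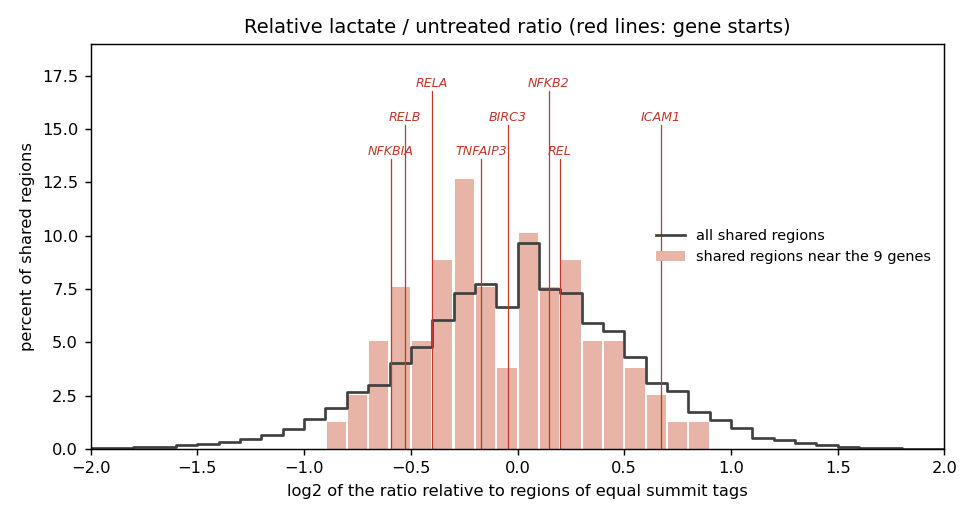
Percent of shared regions (vertical axis) by the log2 of the relative lactate-to-untreated ratio (horizontal axis), for the 79 shared regions near the 9 genes (bars) and all 86803 shared regions (line). Red lines mark the gene starts, from NFKBIA at the left to ICAM1 at the right.

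Around the genes, the 117 regions comprised 79 listed in both libraries, 34 listed in the lactate library alone and 4 listed in the untreated library alone. The lactate-only share was 29.1% (exact binomial interval 21 to 38.2), against 26% of all regions and 25.6% of those within 50 kb of a protein-coding gene. The untreated-only share was 3.42% (0.939 to 8.52), against 7.48% of all regions and 7.11% of those near protein-coding genes. When the longer lactate list was reduced to the length of the untreated list by fold enrichment, the counts became 13 lactate-only (13.5%) and 17 untreated-only (17.7%) of 96 regions, so their order turned. Of all regions at that length, 16.4% were lactate-only and 15.7% untreated-only. Lactate-only regions near the genes had a median of 16 tags and a range of 7 to 60, against a median of 46 for shared regions of the lactate list there.

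Of the 79 shared regions, 23 (29.1%) had a ratio of at least 2, against 29.3% of all shared regions and 30.3% of those near protein-coding genes. A ratio below 1 was found in 3 (3.80%, interval 0.79 to 10.7), against 11.3% of all and 10.1% of those near protein-coding genes. The share of doubled regions was thus near the background. The share below 1 is not matched for height. Shared regions near the genes had medians of 46 lactate and 29 untreated tags, against 31 and 22 over all shared regions. Bins of short regions had median ratios as low as 1.185, and the bin of the tallest regions here had 1.906. The median ratio was 1.58 near the genes and 1.65 over all shared regions, and the median relative ratio was 0.921 near the genes and 1 over all. A relative ratio above 1 was found in 35 of the 79 (44.3%), against 48.4% of all shared regions, and one of at least 2 in 0 of the 79, against 2.45% of all. In the top 10% of their bin lay 3 of the 79 (3.80%, against 9.53% of all shared regions), at ICAM1, TNFAIP3 and NFKB2, and in the bottom 10% lay 5 (6.33%, against 9.50%).

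**Figure D3:**
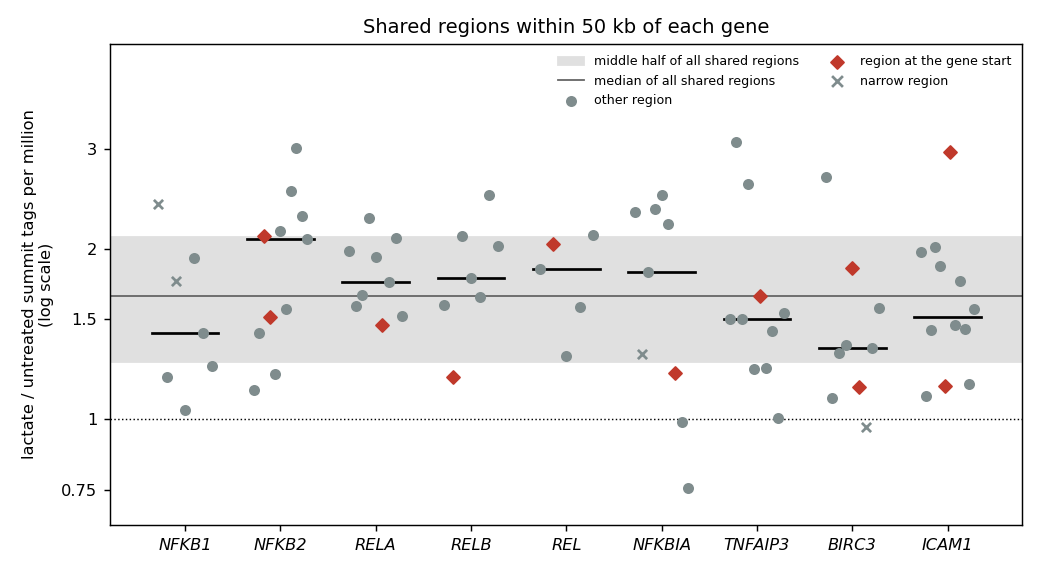
Lactate-to-untreated ratio of scaled tags (log scale, vertical axis) for each shared region within 50 kb of each gene, with diamonds for regions at the gene start, crosses for narrow regions and black lines for the median of each gene. The grey line and band are the median and middle 50% of all shared regions, and the gene medians run between 1.33 at BIRC3 and 2.08 at NFKB2.

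By place, the 11 shared regions at the gene starts had a median ratio of 1.51, the 6 elsewhere in the gene bodies 1.22, the 24 at ends of neighbouring protein-coding genes 1.90 and the 38 in the remaining flanks 1.52. Over the whole genome, shared regions had a median of 1.80 at gene ends and 1.62 elsewhere. The medians inside the 9 genes and at their starts were thus lower than at the ends of their neighbours. These medians are not matched for height, and 3 of the 6 regions in the gene bodies are narrow. Median relative ratios were 0.852 at the gene starts, 0.832 in the gene bodies, 1.03 at ends of neighbouring genes and 0.920 in the flanks. Of the 34 lactate-only regions, 27 lay in the flanks, 4 in the gene bodies, 2 at other gene ends and 1 at a gene start.

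**Figure D4:**
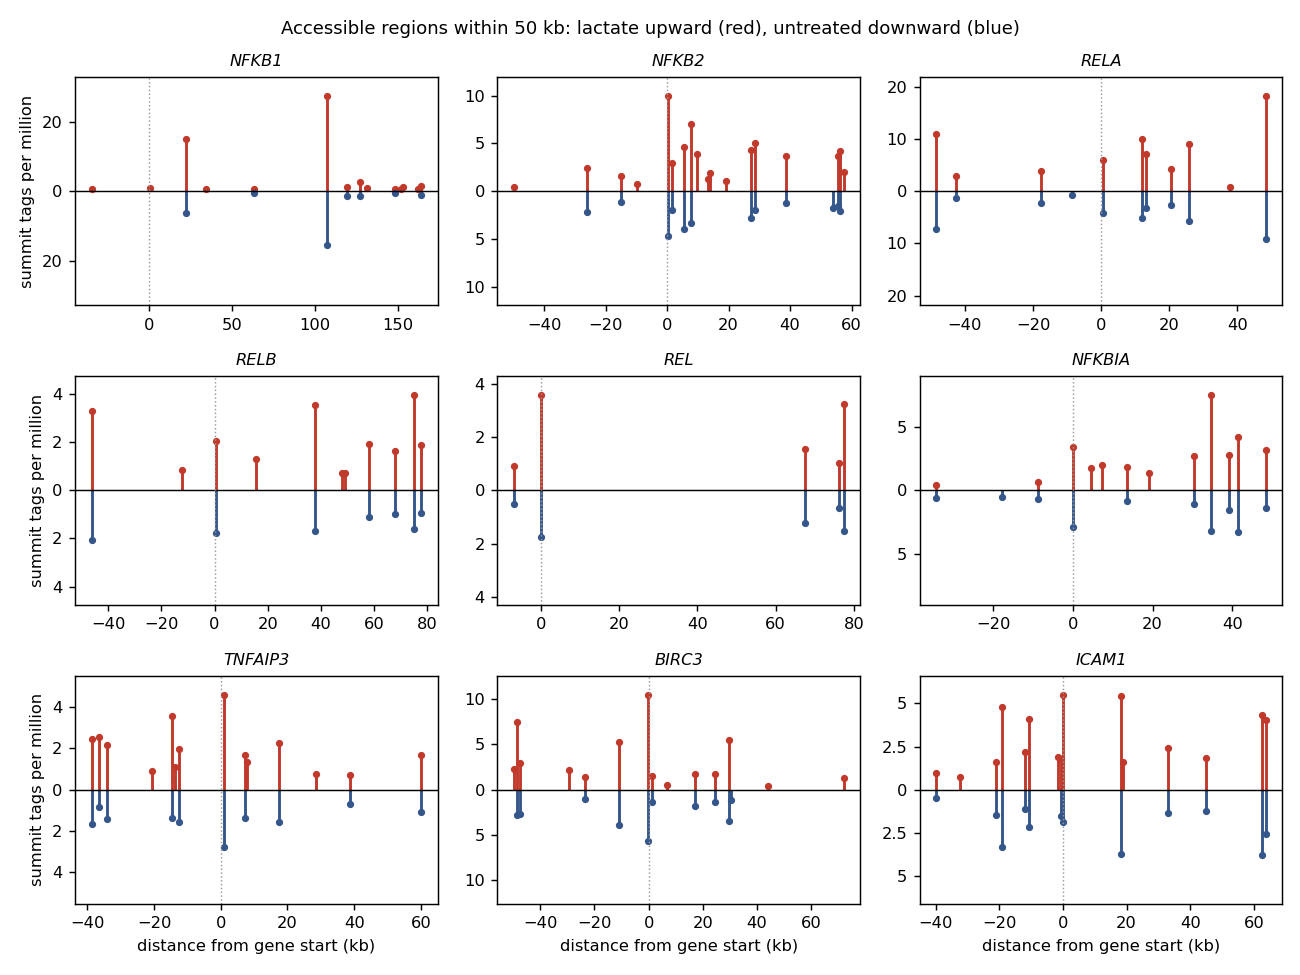
Scaled tags (vertical axis, lactate upward in red and untreated downward in blue) by distance from the gene start in kb (horizontal axis, positive along the gene) for all 117 regions. The scale differs between panels, and stems on one side alone are regions listed in that library alone.

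The NFKB1 window, 6.48 regions per 100 kb, held 7 shared and 7 lactate-only regions. Its tallest regions, inside the gene, had 422 lactate and 285 untreated tags and 233 lactate and 115 untreated tags. Both are narrow, single-summit regions little wider than the 200 bp to which tags were extended, a class that made up 13437 of the 86803 shared regions and had a median ratio of 1.56. Narrow regions made up most of the height in this window. With them the shared regions summed to 49.2 lactate and 26.7 untreated scaled tags, and without them to 6.69 lactate and 4.82 untreated scaled tags, a ratio of 1.39 in place of 1.84. Beyond the far end of NFKB1, a region 127 kb from the start had 39 lactate and 24 untreated tags and one 119 kb from the start had 21 lactate and 24 untreated tags.

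The NFKB2 window was the most densely occupied, with 17.5 regions per 100 kb, and had the highest median ratio of the 9 genes at 2.08. Inside the gene a region 5.52 kb from the start had 72 lactate and 71 untreated tags, a ratio of 1.20 (0.854 to 1.69) and a relative ratio of 0.635 (0.451 to 0.894). At the end of the gene, which is also an end of PSD, a region had 109 lactate and 60 untreated tags and a ratio of 2.15 (1.56 to 3.001). The intervals of these ratios within NFKB2 overlapped. Beyond it, 4 lactate-only regions of 17 to 60 tags lay between 9.86 and 19.2 kb from the start. The region at an end of CUEDC2, 38.6 kb from the start, had 56 lactate and 22 untreated tags and a relative ratio of 1.70 (1.02 to 2.92).

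The RELA window held 9 shared regions, 1 lactate-only and 1 untreated-only region, with shared ratios of 1.47 to 2.27. The region at the RELA start had the lowest of these ratios. The tallest region of the window lay at ends of MAP3K11 and PCNX3, with 281 lactate and 168 untreated tags and a ratio of 1.98. In the RELB window, a region inside the gene 15.7 kb from the lower end was listed in the lactate library alone with 20 tags and a fold enrichment of 9.46. The region beyond its upper end, at an end of CLASRP, had 55 lactate and 31 untreated tags and a relative ratio of 1.18 (0.748 to 1.90). The tallest region of the RELB window in the lactate library, with 61 lactate and 29 untreated tags, lay at ends of ZNF296 and GEMIN7.

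REL had the emptiest window, 3.33 regions per 100 kb, and all 5 regions were in both lists. No region was listed in the gene body beyond its start in either library. A region 6.83 kb before the start had 14 lactate and 9 untreated tags, and the tallest beyond the gene, 77.4 kb from the start, had 50 lactate and 28 untreated tags. Ratios of the 5 regions were 1.29 to 2.12.

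Around NFKBIA the taller regions lay beyond the gene's far end. There, 6 shared regions between 13.5 and 48.5 kb from the start had ratios of 1.31 at the narrow region 41.4 kb away up to 2.488, and 3 more regions were listed in the lactate library alone. The tallest of them, 34.7 kb from the start, had 115 lactate and 58 untreated tags, a ratio of 2.35 (1.70 to 3.28). Before the start, the shared regions 8.66 and 34.3 kb away had 10 lactate and 12 untreated tags and 7 lactate and 11 untreated tags. A region 17.9 kb before the start, with 10 tags, was listed in the untreated library alone. These low counts cannot show a difference, since the intervals of both ratios, 0.382 to 2.494 and 0.248 to 2.13, include 1.

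In the TNFAIP3 window 10 regions were shared and 4 were lactate-only, and none lay at an end of another protein-coding gene. A region 36.6 kb before the start had the highest ratio of all 79, with 39 lactate and 15 untreated tags and a ratio of 3.08 (1.66 to 6.02). Its relative ratio was 1.84 (0.989 to 3.58), and as the extreme of 79 it was named with its value known. The summits compared lay at different points, 137829781 in the lactate and 137829605 in the untreated library. The fold enrichment was 6.04 in the lactate and 2.38 in the untreated library. A region 14.5 kb before the start had 55 lactate and 25 untreated tags and a ratio of 2.61. Between and beyond them, the other 8 shared regions had relative ratios below 1, among them the region inside the gene 7.13 kb from the start with 26 lactate and 25 untreated tags.

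BIRC3 had the lowest median ratio of the 9 genes, 1.33, with 1 of its 9 shared regions above a relative ratio of 1. This was a region 48.6 kb before the start with 115 lactate and 51 untreated tags and a ratio of 2.67 (1.90 to 3.79). A region 47.3 kb before the start had 46 lactate and 50 untreated tags and a ratio of 1.09 (0.714 to 1.66), and the intervals of these neighbours did not overlap. The pair, which holds the highest ratio of the window, was named with its values known, and the intervals do not allow for that choice. A lactate-only region 29.3 kb before the start had 33 tags and a fold enrichment of 12.1. At an end of the neighbouring gene BIRC2, which encodes a related inhibitor of apoptosis, the region had 85 lactate and 64 untreated tags and a ratio of 1.57. A region beside it, with 20 tags, was listed in the untreated library alone.

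In the ICAM1 window no region was listed inside the gene beyond its start. The region past its far end, at ends of ICAM4 and ICAM5, adhesion molecules of the same family, had 84 lactate and 68 untreated tags and a ratio of 1.46 (1.05 to 2.05). At the ends of ICAM3 and RAVER1 a region had 67 lactate and 69 untreated tags, a relative ratio of 0.608 (0.428 to 0.864). Both regions stood below 1 on the relative scale, against 1.59 at the ICAM1 start. Of the 12 shared regions of the window, 5 stood above 1, the start among them. Another of the 5, at an end of S1PR2, had 15 lactate and 9 untreated tags and a relative ratio of 1.53 (0.626 to 3.96).

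The other genes of the pathway were taken from 4 lists and measured at the tallest region within 1 kb of either gene end, which need not be the promoter. Over all protein-coding genes the median relative ratio there was 1.04, 39.1% of 12354 genes had a ratio of at least 2 and 3.24% a ratio below 1. A region in both libraries was found at 62.3% of 19974 genes, one in the lactate library alone at 5.75% and one in the untreated library alone at 0.671%. None of the 65 pathway genes had a region in the untreated library alone.

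Of 10 receptor genes, 9 had a region in both libraries, with a median relative ratio of 1.06, and LTBR had none. The highest was TLR3, which senses double-stranded RNA (1.20, interval 0.475 to 3.10, 12 lactate and 10 untreated tags). Next came the interleukin-1 receptor gene IL1R1 (1.16, interval 0.681 to 2.01) and its partner IL1RAP (1.16, interval 0.866 to 1.55). The lowest was the tumour necrosis factor receptor gene TNFRSF1A (0.609, interval 0.319 to 1.15, 20 lactate and 24 untreated tags). TNFRSF12A (0.683, interval 0.524 to 0.892, 122 lactate and 111 untreated tags) and TLR2 (0.840, interval 0.336 to 2.08) followed. In this list 1 gene had a ratio of at least 2 and 1 a ratio below 1.

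Of 22 adaptor and kinase genes, 17 had a region in both libraries, with a median relative ratio of 1.03, and 7 of the 17 had a ratio of at least 2. TRAF1, itself an NF-kappaB target (36 tags), and IRAK2, a kinase of interleukin-1 signalling (21 tags), had one in the lactate library alone, and TAB2, TRAF3 and TRAF5 had none. The highest were IRAK4 (1.47), the adaptor gene MYD88 (1.46) and IKBKG, which encodes the scaffold of the IkappaB kinase (1.44). The lowest were IRAK1 (0.669), TRAF6 (0.797) and BIRC2 (0.832). Intervals of all 6 named relative ratios included 1.

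Of 13 inhibitor genes, 9 had a region in both libraries, with a median relative ratio of 0.909. ZC3H12A, an RNase gene that limits inflammatory transcripts, had one in the lactate library alone, with 73 tags and a fold enrichment of 2.31, and NFKBID, TNIP3 and N4BP1 had none. NFKBIZ, which encodes an atypical nuclear IkappaB, had 24 tags in the lactate library and 44 in the untreated library, 1.56 against 2.41 scaled tags. Its ratio of 0.646 (0.376 to 1.09) gave a relative ratio of 0.368 (0.214 to 0.619), the lowest of the 52 pathway genes with a value. TNIP2 (0.643) and NFKBIE (0.697) followed, and OTULIN (1.30), NFKBIB (1.08) and CYLD (1.04) were highest. Apart from NFKBIZ, intervals of the relative ratios named in this list included 1.

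Of 20 target genes, 17 had a region in both libraries, with a median relative ratio of 0.987, and 7 of the 17 had a ratio of at least 2. IL32 (17 tags) had one in the lactate library alone, and the endothelial adhesion genes VCAM1 and SELE had none. BIRC5, the survivin gene, had 30 lactate and 9 untreated tags and the highest relative ratio, 2.50 (1.16 to 5.99). As the extremes of 52 pathway genes, BIRC5 and NFKBIZ were named with their values known, and their intervals do not allow for that choice. CFLAR, an inhibitor of caspase activation, had 1.87 (0.860 to 4.37), and IRF1, an interferon regulatory factor gene, had 141 lactate and 48 untreated tags and 1.79 (1.28 to 2.54). The lowest were CD44 (0.677, 0.506 to 0.907), TNF (0.724, 0.490 to 1.07) and PTGS2 (0.778, 0.543 to 1.12), and known targets stood on both sides of 1.

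**Figure D5:**
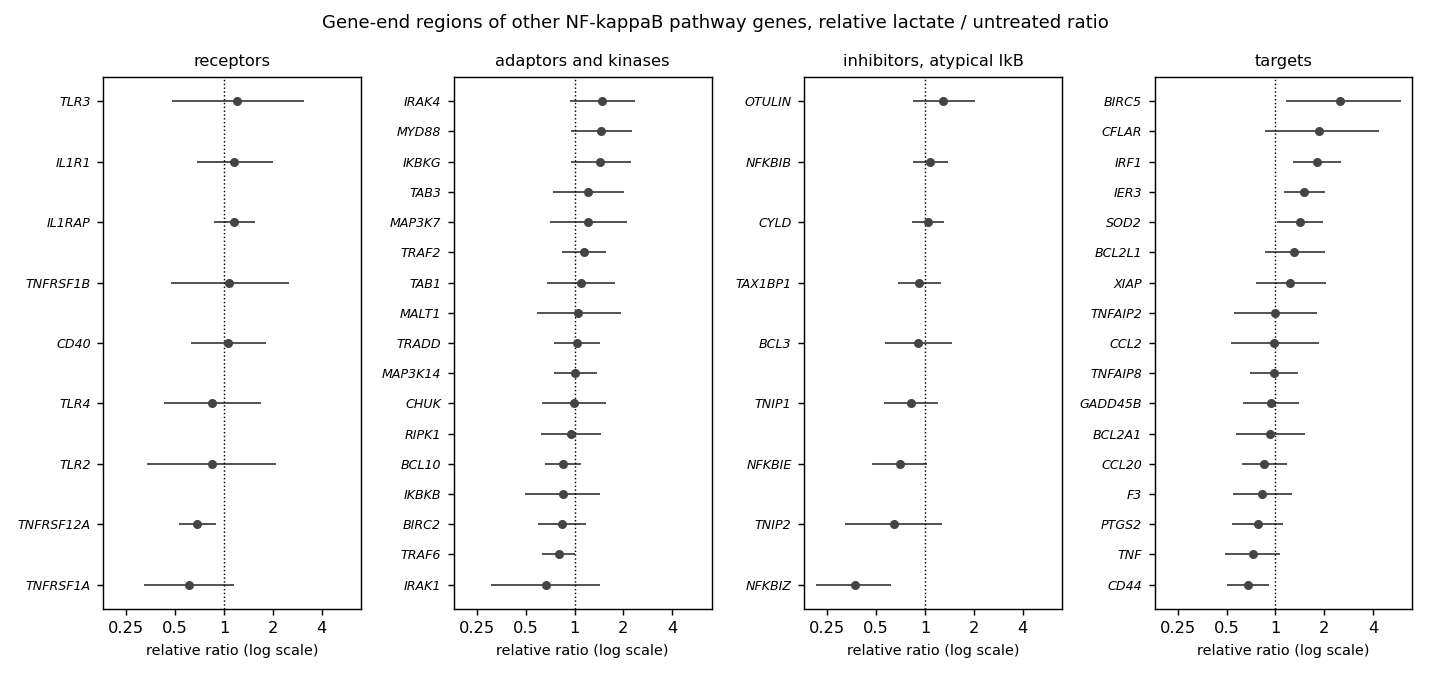
Relative lactate-to-untreated ratio at the gene end (horizontal axis, log scale) of the 52 other pathway genes with a region in both libraries, in 4 panels for the 4 lists. Points are the ratio of 1 library to 1 library and lines are 95% counting intervals, and NFKBIZ is lowest and BIRC5 highest.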

How the data were processed

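ATAC-seq peak lists of 1 lactate and 1 untreated CAL27 library were used, grouped by the treatment label. The labels' protocols describe a Tn5 reaction on nuclei of thawed cells. Per the submitters' processing notes, reads were handled with fastp (0.20.0) and BWA (0.7.12) on hg38 and peaks called with MACS2 (2.1.0), whereas the file headers give MACS 2.2.7.1. Peak calling was done for each library alone by the authors, per the file headers, without a control library, at a q-value threshold of 0.05, with tags shifted by 100 bp and extended to 200 bp, which centres them on the Tn5 cut. The deposited pileup is a signal, the number of extended tags over a summit, not scaled for depth. The deposited fold enrichment is the authors' own value for each peak, used here to describe and filter within a list. It was read as the ratio of pileup to local background with 1 added to each.

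Regions of both lists overlapping by at least 1 bp were merged, and the tallest summit per library was scaled by the tag total in that library's header. Gene positions came from RefSeq tables of GRCh38. Relative ratios used 20 bins of shared regions. A gene end is the 1 kb either side of an annotated end, and narrow regions have a single summit. Exact binomial and conditional Poisson intervals came from scipy 1.17.1. Amplified tags are not independent molecules. Alternatives covered the p-value threshold, window, overlap, list length, narrow regions, summed summits and ends of other genes. Overlap counts equalled those of bedtools 2.31.1, and the code was tested on simulated data.

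The members, lists and tests were chosen with earlier results of these data known. All 9 members are named, and of each pathway list those listed at a gene end in 1 library and not the other, with the 3 highest and 3 lowest relative ratios. Neighbouring genes are named where their gene-end region is the tallest of a window. Others, CUEDC2, CLASRP, PSD, SIPA1, RAVER1, ICAM3, ICAM4, ICAM5 and S1PR2, were named after their values were seen. One marker gene is not reported here.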

Additional observations from a re-analysis of the deposited data

How the results depend on the processing

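No paired analysis was possible because the lactate and the untreated group have 1 library each. Depth limits the weak regions, since heights are not listed where no region was called. Leaving out narrow regions, or ends of other genes (chosen after seeing the data), left the counts within 1.5 times and the median ratio and the share of doubled regions within their intervals, and a stricter overlap left all counts as they were. Keeping regions whose Poisson p, computed anew from pileup and local background, had a −log10 from 7 upward gave an untreated-only count of 1. Within 10 kb there were 13 lactate-only, 2 untreated-only and 29 shared regions, and in the gene bodies alone 5, 0 and 17, as smaller windows hold fewer regions. With both lists cut to the same length, 13 regions (13.5%) were lactate-only and 17 (17.7%) untreated-only, against 16.4% and 15.7% of all regions. Relative to regions of equal summit tags the median ratio was 0.921 and 0% of the shared regions reached a ratio of 2, against 2.45% of all shared regions, on a scale whose genome-wide median is 1 by construction. With the tags of all summits summed, the ratio at the gene start became 1.44 at NFKB2, 1.37 at REL, 1.12 at BIRC3 and 2.30 at RELB, and it was 1.77 at RELA, 1.04 at NFKBIA, 1.81 at TNFAIP3 and 2.96 at ICAM1. The number of summits differed between the libraries at all of these but TNFAIP3 and ICAM1, and the median over all shared regions was 1.58.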
